A study of Mus musculus with 6 samples.

Results

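Genes for dopamine synthesis, transport and reception were followed in messenger RNA from mouse retina, in 3 libraries of conditional Cyfip2 knockouts (Cyfip2 CKO) and 3 libraries of wild-type controls (Cyfip2 WT). The 9 genes were chosen by symbol: Th, Ddc, Gch1, Slc18a2, Slc6a3, Maob, Drd2, Drd4 and Drd5. All 9 were found among the 24346 gene symbols of the 6 libraries. Cyfip2 encodes a subunit of the WAVE complex, which controls branched actin assembly, and the comparison asks which retinal transcripts differ when it is deficient. The sources used here give no strain, age, Cre line or number of animals for any library. They do not say whether libraries of 1 group came from separate animals, so p-values refer to the spread between these libraries alone, which may be technical.

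In the retina dopamine is made by a sparse class of amacrine cells, the inhibitory interneurons of the inner retina, and is released in light. It spreads by diffusion and acts through receptors on many cell types to shift the retina toward daylight vision. Tyrosine hydroxylase (Th) makes L-DOPA in the rate-limiting step, with tetrahydrobiopterin as cofactor, and aromatic L-amino acid decarboxylase (Ddc) turns it into dopamine. D1-class receptors (Drd1, Drd5) raise cyclic AMP and D2-class receptors (Drd2, Drd3, Drd4) lower it. Drd4 is the D2-class receptor of mouse photoreceptors, and Drd2 serves as an autoreceptor on dopamine neurons.

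Expression was deposited as FPKM, the number of sequenced fragments corrected for transcript length and library size. The depth of the libraries relative to WT 1 was 1.04 in CKO 1, 1.29 in CKO 2, 1.18 in CKO 3, 1.09 in WT 2 and 1.06 in WT 3, read from the smallest steps of the values; the absolute depth is unknown. Cyfip2 itself averaged 9.91 ± 1.45 FPKM in CKO retina, against 53.6 ± 15.7 FPKM in WT (n = 3 each, SD). WT 1, at 35.5 FPKM of Cyfip2, stood below WT 2 at 63.1 and WT 3 at 62.3 FPKM and above every CKO library. Testing was limited to the 13215 genes whose mean reached 1 FPKM. Of these, 3 passed an adjusted p of 0.05 in limma, 0.0227% of those tested, and none of them was a dopamine gene. The only gene lower in CKO among the 3 was Cyfip2 itself, with a log2 fold change of -2.29 and a limma adjusted p of 0.0239. As a check of the tissue, rod marker genes summed to 7342.5 to 8063 FPKM in CKO and 7650 to 8520 FPKM in WT. Of 6 marker genes of midbrain and hypothalamus, Hcrt and Avp were listed at 0 in all 6 libraries and Oxt in all but CKO 2 and WT 1, Calca lay between 0.469 and 1.36 FPKM, and Pomc and Aldh1a1 averaged 4.87 and 25.7 FPKM in CKO, against 4.90 and 26.2 FPKM in WT. The midbrain dopamine regulators Lmx1a, Lmx1b and Foxa2 were listed at 0 throughout.

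Transcripts of the receptors Drd4 and Drd2 were far above those of the synthesis genes, and the clearest difference among the dopamine genes was a lower Drd4 in CKO. Averaged over the 6 libraries on the FPKM scale, Drd4 stood at 109.2, Drd2 at 19.1, Slc18a2 at 2.43, Th at 2.05, Drd5 at 1.21, Maob at 0.409, Ddc at 0.364, Gch1 at 0.241 and Slc6a3 at 0.047 FPKM. The 6 values of Drd4 lay wholly above those of Drd2, those of Drd2 above those of Slc18a2, and those of Drd5 above those of Maob. The other neighbours in this order, Slc18a2 with Th, Th with Drd5, Maob with Ddc, Ddc with Gch1 and Gch1 with Slc6a3, overlapped in their values. Of the 9 genes, 5 had a mean of at least 1 FPKM and were tested (Th, Slc18a2, Drd2, Drd4 and Drd5), and Ddc, Gch1, Slc6a3 and Maob did not reach it. None of the 5 passed the threshold, and 3 of the 5 had log2 fold changes above 0, as had 49.5% of all tested genes.

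**Figure D1:**
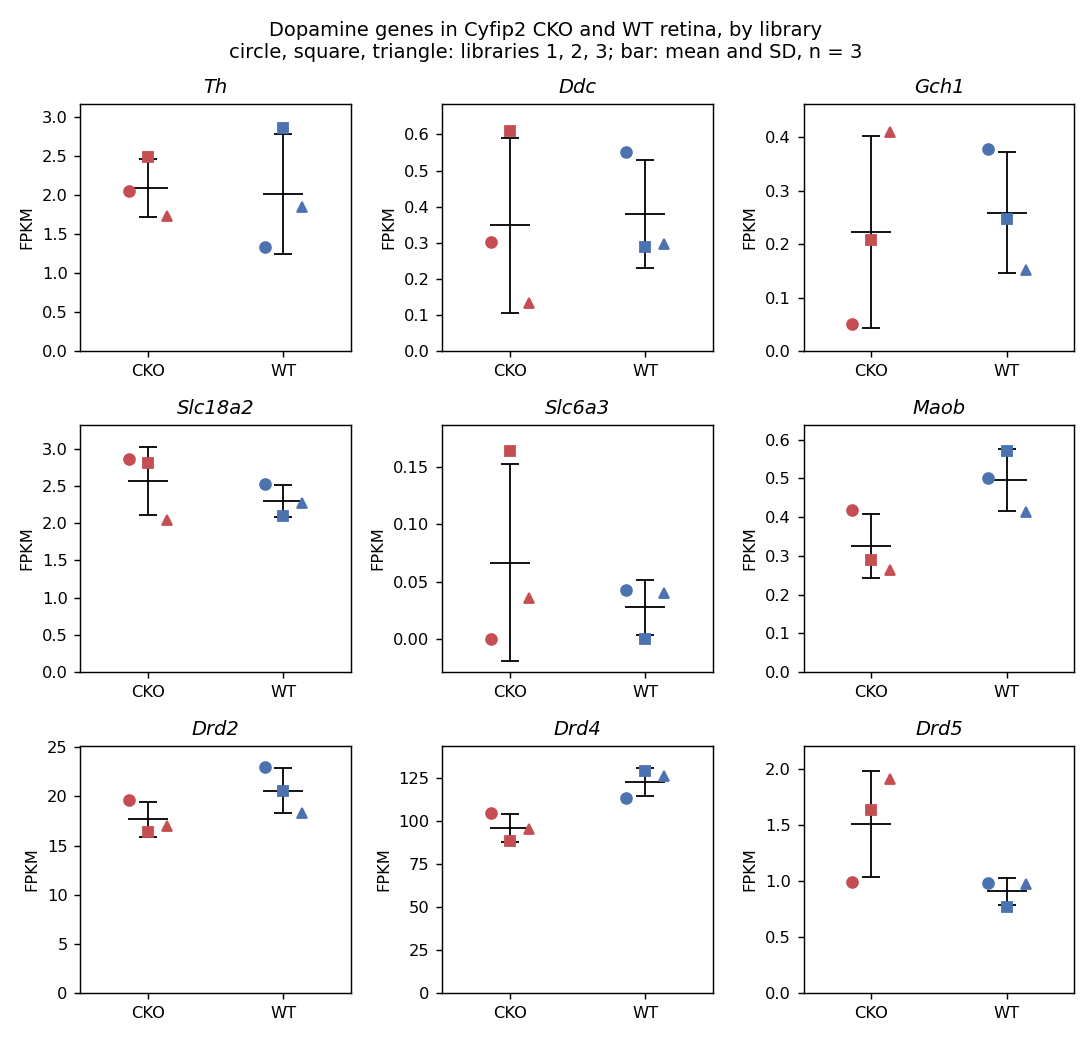
FPKM of each of the 9 dopamine genes in CKO (left) and WT (right) libraries, with libraries 1 to 3 as circle, square and triangle, and the mean and SD (n = 3) as bars; each panel has its own linear axis. All CKO values of Drd4 lie below all WT values, Drd5 is higher in CKO 2 and CKO 3, and the groups overlap for Th, Ddc, Gch1, Slc18a2, Slc6a3, Maob and Drd2.

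The upstream sequences of Th, the gene of the rate-limiting enzyme, and of Drd4, the receptor gene with the clearest difference, are shown for their contrast in 1 regulatory element. They are the bases before the RefSeq start on GRCm38.p6, cut where an exon of GENCODE M21 begins, and are written 5′ to 3′ on the gene's own strand. That of Th is chr7:142900015-142900245 on the minus strand and that of Drd4 is chr7:141291768-141292005 on the plus strand. In GENCODE M21 the span of Th extends to 142931128, so the Th window lies inside that span. It is upstream of the RefSeq start only. Capitals mark the cyclic AMP response element TGACGTCA.
Th: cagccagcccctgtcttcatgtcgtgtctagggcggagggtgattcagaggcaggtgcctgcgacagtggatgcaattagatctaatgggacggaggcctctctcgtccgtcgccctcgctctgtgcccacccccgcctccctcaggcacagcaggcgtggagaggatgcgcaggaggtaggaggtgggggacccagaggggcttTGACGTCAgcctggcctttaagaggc
Drd4: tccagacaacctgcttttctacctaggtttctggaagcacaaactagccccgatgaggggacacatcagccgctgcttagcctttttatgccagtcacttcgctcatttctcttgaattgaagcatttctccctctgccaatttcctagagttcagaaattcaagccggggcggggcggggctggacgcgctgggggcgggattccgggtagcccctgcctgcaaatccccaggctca
The element in Th begins 45 bases before the RefSeq start. Within the 250 bases before the start, TGACGTCA was found in 508 of 32851 promoters, which is 1.55%. Of the 8 dopamine genes with an entry, it was found in Th alone. The Drd4 window held none of TGACGTCA, the NBRE AAAGGTCA, the CRX-type TAATCC, the E-box CACGTG or the TATA motif TATAAA, each searched on both strands. Those other motifs stood in 1.34%, 6.25%, 6.02% and 12.4% of all promoters in that order. A match is a string of letters and no evidence of binding.

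Drd4 was at 104.2, 88.3 and 94.98 FPKM in CKO 1 to 3, against 113.1, 128.7 and 125.9 FPKM in WT 1 to 3. Every CKO library was below every WT library, with CKO 1 and WT 1 closest to each other. Drd4 averaged 95.8 ± 8.01 FPKM in CKO retina, against 122.6 ± 8.30 FPKM in WT (n = 3 each, SD), a ratio of 0.782. This corresponds to a log2 fold change of -0.35 (SE 0.07) with a 95% confidence interval of -0.52 to -0.18. The unadjusted p was 0.001386 and the limma adjusted p 0.3044, so Drd4 was short of the threshold over all genes. It was the only 1 of the 5 tested dopamine genes with an unadjusted p under 0.05, as had 7.88% of all tested genes. Its groups were also among the 6.95% of all tested genes whose CKO values lay wholly below the WT values. With any 1 library left out, the log2 fold change of Drd4 stayed between -0.41 and -0.30, and it was -0.41 without WT 1. Drd4 spans 141292006 to 141296464 on the plus strand of chromosome 7 (GRCm38), has 4 exons in its longest transcript and overlaps no other annotated gene. Its nearest coding neighbour is Deaf1, 715 bp away on the other strand.

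Markers of several retinal cell types were also lower in CKO on average, photoreceptors among them. All 6 rod markers had log2 fold changes below 0, between -0.13 and -0.0062 with a median of -0.09, and all 7 cone markers had values between -0.34 and -0.08 with a median of -0.17. Over all genes the median was -0.0016. None of these 13 genes passed the threshold. Of the markers, 1 of the 6 rod and 2 of the 7 cone genes had CKO values wholly below the WT values, against 6.95% of all tested genes. The same held for 5 of 7 horizontal cell markers (median log2 fold change -0.23), 6 of 8 ganglion cell markers (-0.16) and 3 of 8 bipolar cell markers (-0.10). These marker lists were chosen with earlier results of these data known, so the counts are a description only. The horizontal cell connexin Gja10 lay at -0.38. The photoreceptor marker nearest to Drd4 was the cone opsin Opn1mw, at 80.1 ± 4.52 FPKM in CKO retina, against 101.8 ± 12.04 FPKM in WT, a log2 fold change of -0.34. Among rod genes, the transcription factor Nrl lay at -0.13. Fewer cells of a type and less RNA per cell cannot be told apart in whole retina.

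The mean level of Drd4 was lower in CKO relative to summed rod markers, summed cone markers and Nrl, with overlapping groups for Nrl. Per 1000 FPKM of summed rod markers it was at 14.2, 10.97 and 11.8 in CKO 1 to 3, against 14.8, 15.1 and 14.97 in WT 1 to 3. These groups did not overlap, and the exact two-sided permutation p was 0.1, the smallest that 3 against 3 libraries allow. Per 100 FPKM of summed cone markers it was at 12.8 ± 1.16 in CKO and 14.7 ± 0.397 in WT (n = 3 each, SD; exact permutation p = 0.1). Against Nrl alone the groups overlapped, with ratios of 0.156 ± 0.0187 in CKO and 0.183 ± 0.0133 in WT (n = 3 each, SD; exact permutation p = 0.2). Against Opn1mw the groups also overlapped, with ratios of 1.197 ± 0.0688 in CKO and 1.21 ± 0.111 in WT (n = 3 each, SD, exact permutation p = 0.9). Opn1mw was picked, after the values were seen, as the photoreceptor marker nearest to Drd4 in fold change. A like ratio in both groups followed from that choice, so this comparison is no test. The rod sum is carried by a few abundant genes, among them Sag, which lay at -0.10, and Gnat1, which lay at -0.0062. The most abundant genes of the cone sum were Gnb3 (-0.12) and Pde6h (-0.08). The part of photoreceptor content in the Drd4 difference was not tested.

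**Figure D2:**
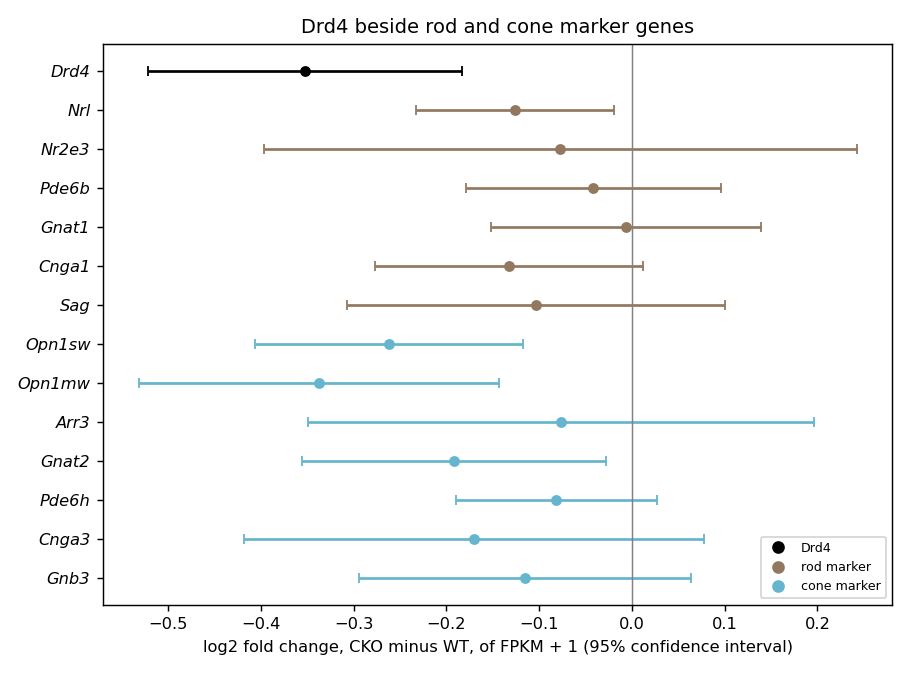
Log2 fold change, CKO minus WT, on the log2(FPKM + 1) scale with 95% confidence intervals from limma, for Drd4 (black), 6 rod markers (brown) and 7 cone markers (light blue). Drd4 lies at -0.35 and every marker lies between it and 0, with Opn1mw at -0.34.

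Drd2 was at 19.7, 16.4 and 17.0 FPKM in CKO 1 to 3, against 23.0, 20.5 and 18.3 FPKM in WT 1 to 3. CKO 1 was above WT 3, so the groups overlapped. Drd2 averaged 17.7 ± 1.76 FPKM in CKO retina, against 20.6 ± 2.32 FPKM in WT (n = 3 each, SD). The log2 fold change was -0.21 (95% confidence interval -0.43 to 0.02, limma adjusted p = 0.6597), and it was -0.13 without WT 1. Drd2 spans 49340627 to 49408177 on the plus strand of chromosome 9.

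Drd5, a D1-class receptor with little transcript in these retinas, lay in the other direction. It was at 0.985, 1.63 and 1.91 FPKM in CKO 1 to 3, against 0.982, 0.763 and 0.970 FPKM in WT 1 to 3. CKO 1 exceeded WT 1 only in the third decimal, and the higher mean came from CKO 2 and CKO 3. Drd5 averaged 1.51 ± 0.473 FPKM in CKO retina, against 0.905 ± 0.123 FPKM in WT (n = 3 each, SD), a ratio of 1.67. The log2 fold change was 0.38 (95% confidence interval -0.0051 to 0.77, limma adjusted p = 0.6394). This is on the log2(FPKM + 1) scale, which understates changes at so low a level, so it is below what the ratio implies. With a pseudocount of 0.1 or 0.01 in place of 1 it was 0.64 or 0.69. By the narrow margin of CKO 1 over WT 1 the groups did not overlap. Such genes, wholly higher in CKO, made up 6.96% of all tested genes. The WT mean of Drd5 was below 1 FPKM, so that it entered the test only through its CKO values. Without CKO 3 the log2 fold change was 0.26 and without CKO 1 it was 0.54. Drd5 spans 38319367 to 38322518 on chromosome 5 in 1 exon and overlaps the antisense gene Gm26560. The sources used here do not state whether counting used strand, so their reads may not have been separated.

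The remaining receptors differed little between group means. Drd1, the main D1-class receptor by level, averaged 13.8 ± 2.66 FPKM in CKO retina, against 13.9 ± 0.680 FPKM in WT (n = 3 each, SD). Its log2 fold change was -0.02 (95% confidence interval -0.32 to 0.27, limma adjusted p = 0.9772). Drd3 was listed at 0 in all 6 libraries. The FPKM of Drd1, Drd2, Drd4 and Drd5 summed to 128.8 ± 10.4 in CKO and 157.9 ± 5.97 in WT (n = 3 each, SD). Drd4 made up 74.4% ± 1.71 of that sum in CKO and 77.6% ± 2.61 in WT. The D1-class share, Drd1 with Drd5, was 11.9%, 13.6% and 10.1% in CKO 1 to 3, against 10.3%, 8.78% and 9.03% in WT 1 to 3. CKO 3 was below WT 1, so the shares overlapped (exact two-sided permutation p = 0.2).

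Th, which carries the rate-limiting step, was at 2.04, 2.48 and 1.73 FPKM in CKO 1 to 3, against 1.34, 2.85 and 1.85 FPKM in WT 1 to 3. The highest and the lowest of the 6 values were both WT libraries. Th averaged 2.08 ± 0.374 FPKM in CKO retina, against 2.01 ± 0.771 FPKM in WT (n = 3 each, SD). The difference was 0.06 on the log2 scale (SE 0.19), with a 95% confidence interval of -0.39 to 0.50 and a limma adjusted p of 0.962. An interval of this width leaves room for a difference as large as that of Drd4 in either direction. The direction turned when WT 1 (-0.11) or CKO 2 (-0.03) was left out. Th spans 142892752 to 142931128 on the minus strand of chromosome 7, with no overlapping gene.

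Slc18a2, the vesicular monoamine transporter that loads dopamine into vesicles, was at 2.86, 2.81 and 2.04 FPKM in CKO 1 to 3, against 2.53, 2.10 and 2.27 FPKM in WT 1 to 3. CKO 1 and CKO 2 were above every WT library and CKO 3 was below every WT library. The log2 fold change was 0.11 (95% confidence interval -0.19 to 0.40, limma adjusted p = 0.8884). It was 0.05 without CKO 1 or CKO 2, 0.06 without WT 2 and 0.22 without CKO 3. Slc18a2 spans 59260896 to 59296012 on the plus strand of chromosome 19 and overlaps the antisense gene Gm29261. The balance of Th to Slc18a2 varied more within WT than between groups. The ratio of Th to Slc18a2 was 0.816 ± 0.0879 in CKO and 0.899 ± 0.421 in WT (n = 3 each, SD), and ranged from 0.529 in WT 1 to 1.36 in WT 2.

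The genes whose log2(FPKM + 1) was most like Th over the 6 libraries, among 12343 tested genes, were Iah1 (Pearson's r 0.985), Malat1 (0.982), Stard5 (0.982), Tubgcp6 (0.979) and Vasn (0.978). For Slc18a2 they were Zfp942 (0.991), Arl5c (0.987), Slc25a30 (0.976), Agk (0.976) and Klf6 (0.976). The lists share no gene, and with 6 libraries such values are a description only.

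**Figure D3:**
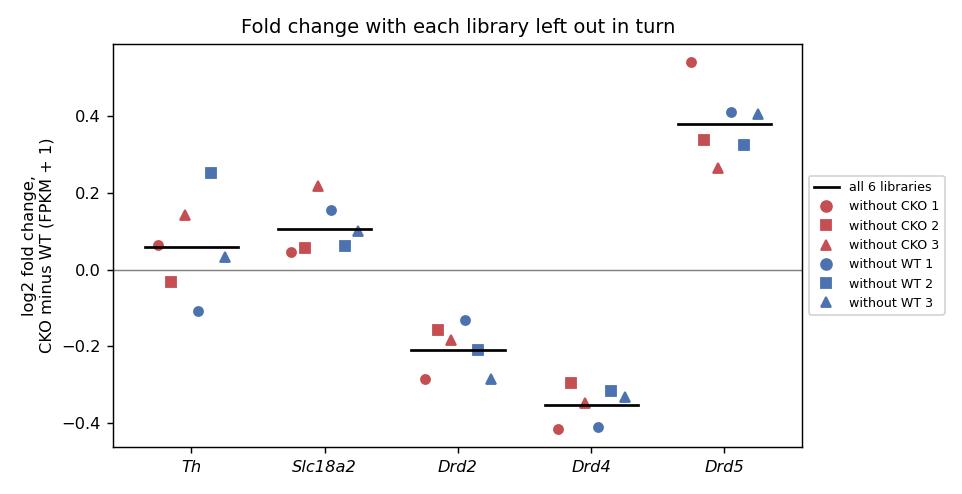
Log2 fold change, CKO minus WT, of the 5 tested dopamine genes in all 6 libraries (black line) and with each library left out in turn (red, a CKO library left out, blue, a WT library left out). Values are on the log2(FPKM + 1) scale, which understates changes of low genes, Th, Slc18a2 and Drd5 among them. Drd4 stays between -0.41 and -0.30 and Drd2 below 0, Drd5 ranges from 0.26 to 0.54, and Th crosses 0 without CKO 2 and without WT 1.

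The other synthesis, reuptake and breakdown genes lay near the lower limit of these libraries. Ddc, the decarboxylase, was at 0.302, 0.609 and 0.133 FPKM in CKO 1 to 3, against 0.553, 0.289 and 0.297 FPKM in WT 1 to 3 (exact two-sided permutation p = 1). Gch1, the first enzyme of tetrahydrobiopterin synthesis, was at 0.0515, 0.208 and 0.410 FPKM in CKO 1 to 3, against 0.377, 0.246 and 0.152 FPKM in WT 1 to 3 (exact permutation p = 0.8). In both genes the highest and the lowest value stood within the CKO group, so the groups overlapped fully. Ddc, from 11814101 to 11898144 on chromosome 11, overlaps the antisense gene 1700042O10Rik. Gch1, from 47153895 to 47189413 on chromosome 14, overlaps the pseudogenes Gm49134 and Gm18811.

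Slc6a3, the plasma membrane dopamine transporter, was listed at 0, 0.164 and 0.0358 FPKM in CKO 1 to 3, against 0.0424, 0 and 0.0399 FPKM in WT 1 to 3. Scaled to the depth of WT 1, the values above 0 stood at 4.99 in CKO 2, 1.001 in CKO 3 and 0.995 in WT 3 times that of WT 1. These are the whole steps that single fragments would give, and no difference was detectable at this depth (exact permutation p = 0.9). Maob, a monoamine oxidase that breaks dopamine down, was at 0.418, 0.290 and 0.264 FPKM in CKO 1 to 3, against 0.5004, 0.572 and 0.412 FPKM in WT 1 to 3. CKO 1 was just above WT 3, so the groups overlapped. Maob averaged 0.324 ± 0.0826 FPKM in CKO retina, against 0.495 ± 0.080 FPKM in WT (n = 3 each, SD; exact permutation p = 0.2). It spans 16709282 to 16817366 on chromosome X, 21463 bp from its paralog Maoa.

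Among the further genes of the pathway, none passed the threshold. Of 6 further genes of tetrahydrobiopterin synthesis and recycling, 5 were tested, with 2 log2 fold changes above 0 and 3 below 0 (median -0.0076). Sepiapterin reductase (Spr) was at 14.2 FPKM in CKO retina, against 12.3 FPKM in WT (0.19, limma adjusted p = 0.6295), and Pts was at 26.2 FPKM in CKO retina, against 29.4 FPKM in WT (-0.16, adjusted p = 0.7014). Pcbd1 (-0.02) and Pcbd2 (0.03) lay near 0. Of 8 other catecholamine enzymes and transporters, 3 were tested, all with log2 fold changes above 0 (median 0.16). Among them Aldh2, a mitochondrial aldehyde dehydrogenase that acts on the aldehyde left by monoamine oxidase, was at 11.7, 10.7 and 10.8 FPKM in CKO 1 to 3, against 8.87, 8.27 and 8.83 FPKM in WT 1 to 3. Its groups did not overlap, as in the 6.96% of all tested genes that were wholly higher in CKO. Its log2 fold change of 0.32 (95% confidence interval 0.16 to 0.48) had an unadjusted p of 0.001757 and a limma adjusted p of 0.3118. Aldh7a1 was at 18.0 FPKM in CKO retina, against 16.0 FPKM in WT (0.16, adjusted p = 0.6214). A further aldehyde dehydrogenase gene, Aldh1a1, was counted above with midbrain and hypothalamus and not in this list, and lay at -0.03.

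The other monoamine oxidase gene differed little between the means. Maoa averaged 7.15 FPKM in CKO retina, against 6.96 FPKM in WT (0.03, limma adjusted p = 0.9529). On the FPKM scale, which is per length, Maoa was thus well above Maob in all 6 libraries. Slc22a3, an organic cation transporter, was at 0.120, 0.162 and 0 FPKM in CKO 1 to 3 and listed at 0 in all WT libraries.

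**Figure D4:**
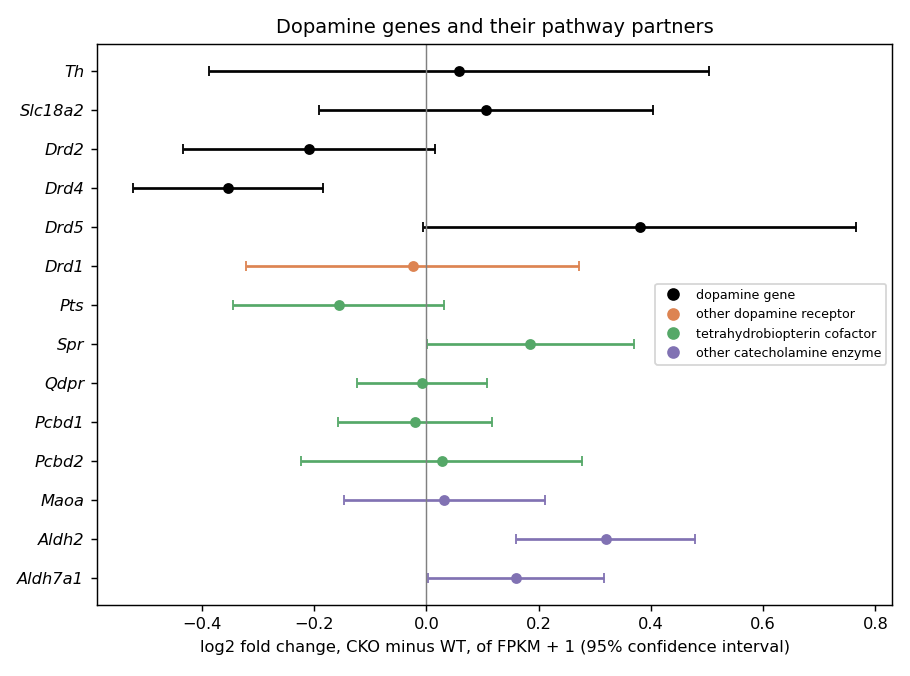
Log2 fold change, CKO minus WT, on the log2(FPKM + 1) scale with 95% confidence intervals from limma, for the 5 tested dopamine genes (black), Drd1 (orange), the tested tetrahydrobiopterin genes (green) and the other tested catecholamine enzymes (purple). The intervals of Drd4 (-0.52 to -0.18) and Aldh2 (0.16 to 0.48) lie farthest from 0, and no gene passed the threshold after adjustment over all genes. The scale understates changes of low genes, Th, Slc18a2 and Drd5 among them.

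Of 20 genes of dopamine receptor signalling, all tested, 14 had log2 fold changes above 0 and 6 below 0, with a median of 0.03 and a range of -0.17 to 0.10. The smallest p values belonged to the protein kinase A subunit Prkacb (75.1 FPKM in CKO, 71.2 FPKM in WT; limma adjusted p = 0.7163) and the phosphodiesterase Pde4b (29.5 FPKM in CKO, 27.4 FPKM in WT; adjusted p = 0.7167). Adcy1, an adenylyl cyclase of photoreceptors, was at 69.0 FPKM in CKO retina, against 65.8 FPKM in WT (0.07, adjusted p = 0.7473). Ppp1r1b, which encodes DARPP-32, was at 4.96 FPKM in CKO retina, against 5.71 FPKM in WT (-0.17, adjusted p = 0.7482). Melatonin is the night-time counterpart of dopamine in the retina. Of 7 genes of its synthesis and reception, only Tph1 reached the filter, at 0.949 FPKM in CKO retina, against 1.41 FPKM in WT (-0.27, adjusted p = 0.7977). Its CKO mean was below 1 FPKM, so that it entered the test only through its WT values. Asmt and Mtnr1b were listed at 0 in all 6 libraries, and Gpr50 averaged 0.085 FPKM in CKO retina, against 0.0482 FPKM in WT.

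Of 8 transcription factors of dopamine neurons, 2 were tested. Nr4a2, also called Nurr1, was at 4.20, 4.08 and 4.16 FPKM in CKO 1 to 3, against 3.73, 3.62 and 3.54 FPKM in WT 1 to 3. The groups did not overlap, with a log2 fold change of 0.15 (95% confidence interval -0.04 to 0.34, limma adjusted p = 0.7165). Of all tested genes, 6.96% were likewise wholly higher in CKO. Nr4a1 was at 11.8 FPKM in CKO retina, against 13.1 FPKM in WT (-0.13, adjusted p = 0.9002). Pitx3 averaged 0.0376 FPKM in CKO retina, against 0.0765 FPKM in WT. En1 was listed at 0 in CKO and averaged 0.0196 FPKM in WT.

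Markers of amacrine cells at large were higher in CKO on average, unlike the medians of the horizontal, ganglion, bipolar, rod and cone markers given above, while the dopaminergic markers Th and Slc18a2 overlapped between groups. Of 11 tested amacrine markers, 10 had log2 fold changes above 0 and 1 below 0, with a median of 0.21, and 9 had groups that did not overlap and were higher in CKO, against 6.96% of all genes. None passed the threshold. The list was chosen with earlier results of these data known, so these counts describe it and are no test against all genes. The 12 markers summed to 552.2 to 566.2 FPKM in CKO and 477.6 to 502.7 FPKM in WT. The transcription factor Tfap2b was at 72.8 FPKM in CKO retina, against 60.9 FPKM in WT (0.25, limma adjusted p = 0.196). C1ql2 (0.36), Gad1 (0.16) and Meis2 (0.21) were next by p. Prdm13 lay in the other direction, at 9.14 FPKM in CKO retina, against 11.2 FPKM in WT (-0.27, adjusted p = 0.4273), with CKO values wholly below the WT values. Ptf1a averaged 0.0299 FPKM in CKO and was listed at 0 in WT. Of 13 markers of other amacrine classes, 5 lay above 0 and 8 below 0 (median -0.0054). The tachykinin gene Tac1 was at 0.32 and the vesicular glutamate transporter Slc17a8 at 0.26, while the cholinergic genes Slc18a3 and Slc5a7 were at -0.42 and -0.25 and Chat, also cholinergic, was at -0.05 with overlapping groups. Whether the fold changes of Th or Slc18a2 differ from those of these markers was not tested.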

How the data were processed

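Retinal messenger RNA of 3 Cyfip2 CKO and 3 Cyfip2 WT libraries was analysed. Per the labels' protocols, TRIzol extraction was followed by stranded TruSeq mRNA library preparation. Cufflinks 2.2.1, SAMtools 1.11, TopHat2 2.0.13, Bowtie2 2.3.5.1 and the build mm10 appear in the submitters' processing notes, without roles. The sources used here name neither the annotation nor the strand setting. The authors deposited values in FPKM, the unit of the named Cufflinks; the authors gave 1 value per gene symbol and library. In WT 3, 27 symbols turned into dates were restored from the same rows of the other libraries.

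FPKM keeps no counts. Relative depth was the commonest ratio to WT 1 at genes with a mean below 0.3 FPKM, and each precision rests on the spread between libraries. Values became log2(FPKM + 1), which understates changes of low genes, and the 13215 genes whose mean reached 1 FPKM were tested with limma 3.58.1 under R 4.3.3 (eBayes with a variance trend, two-sided, no covariate, Benjamini-Hochberg over all genes at 0.05). Adjusted p-values come from this fit. Single values and genes below the filter were compared by exact two-sided permutation (scipy 1.17.1), whose smallest p is 0.1. The fit was also run on values simulated with known changes and with its own estimated spread, which cannot test that spread. Positions are from GENCODE M21 (GRCm38), promoters from RefSeq (GRCm38.p6), where 8 of the 9 genes had an entry.

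The members and lists were chosen with earlier results of these data known. The named genes were the 9 dopamine genes and Cyfip2. From each related list, the 4 tested genes of smallest p and those with a mean below 0.1 FPKM were added, and for Th and Slc18a2 the 5 most like genes, predicted genes left out. A few genes of these lists are not reported here. Other cell type markers, Prdm13 and Chat stand outside this rule. The ratio of Drd4 to Opn1mw was added after the values were seen. The alternatives tried were a pseudocount of 0.1 or 0.01, a filter at 0.1 FPKM or none, median-of-ratios scaling, quantile normalization, a replicate block, eBayes without the trend or robust, and each library left out.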

Additional observations from a re-analysis of the deposited data

How the results depend on the processing

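No dopamine gene passed the threshold in any of the 15 alternatives (0 in each). Ddc, Gch1 and Maob entered only the fits with a filter at 0.1 FPKM or none, and Slc6a3 only the fit with none. Drd4 stayed between -0.41 and -0.30 (log2), with unadjusted p-values of 0.0006421 to 0.006964 and limma adjusted p-values of 0.2186 to 0.7756. Drd2 stayed between -0.29 and -0.13, Slc18a2 between 0.05 and 0.22 and Drd5 between 0.26 and 0.69, the last at a pseudocount of 0.01. Unadjusted limma p-values ran from 0.01407 to 0.2148 for Drd2 and from 0.005578 to 0.1683 for Drd5. Th turned to -0.03 without CKO 2 and -0.11 without WT 1; leaving out 1 library gave -0.11 to 0.25. Over all genes, 2 were higher in CKO and 1, Cyfip2 itself, was lower. Leaving out 1 library gave 1 to 3 higher and 0 to 1 lower genes. The count of lower genes was 0 with no filter, with robust eBayes and without the trend, so that Cyfip2 itself did not pass in those settings. The count of higher genes was 1 without the trend. The cause was not tested. With the replicate block, 1 gene was higher and 1 lower, and the log2 fold change of Drd4 was -0.35 (adjusted p = 0.3874). Same-numbered libraries deviated from their group means with correlations of 0.072, 0.0063 and 0.101. CKO 1 and CKO 3 correlated best with their own number, and CKO 2 with WT 1. The numbers were not taken as pairs in the main fit, and whether same-numbered libraries shared a batch is not known.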
